A study of Drosophila melanogaster with 18 samples.

Results

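At intermediate passages, 203 of 7085 tested genes were called different between the Drosophila melanogaster cell lines R7 and R3. Those with the largest differences, among them the protease gene stl, the transferrin gene Tsf1, the chitin-binding protein gene obst-A and the transcription factor genes vvl and mid, were high in R7 and near or below the detection floor in R3. The comparison rests on 6 of the 18 Affymetrix arrays of the series: the 2 arrays of R7 at passages 7 and 8 (P7 and P8), against the 4 arrays of R3 at passages 5, 6, 7 and 8 (P5 to P8). All intermediate arrays of both lines were taken by their passage labels, except that the R7 array at P4, a passage that falls within the ranges of both the early and the intermediate stage, was set apart. Both lines were grown as flask cultures in Schneider's medium with fetal bovine serum and antibiotics. The labels used here give no genotype, tissue of origin or cell type for either line and do not say whether the passages of a line came from separate flasks. Each array is therefore 1 passage of 1 line, successive passages stand in for replicates, and the p-values below cover passage-to-passage and array-to-array variation only.

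Cultures set up from fly embryos start as a mixture of cell types, and the composition of the mixture shifts over the first passages before a line is established. Larval and embryonic blood cells (haemocytes) express GATA transcription factors, scavenger receptors and engulfment receptors, and also deposit collagen IV in basement membranes. Tracheal and epidermal cells secrete chitin, which chitin-binding proteins and chitin deacetylases organise into the apical matrix, while adult muscle precursors are mesodermal cells marked by the transcription factor Twist and the FGF receptor Heartless. In RNA from whole cultures, fewer cells of a type and less RNA per cell cannot be told apart.

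Each probe set has 1 linear intensity per array, and an intensity below 32 was set to this floor before log2. In all, 8958 of 18769 non-control probe sets (47.7%) exceeded 32 on 2 or more of the 6 arrays and were tested, and they covered 7085 genes. The 6 arrays had medians of 24.1 to 25.7, and 44.7% to 46.0% of their probe sets lay above the floor. The ratio of 3' to 5' signal was 1.14 to 1.21 on the R7 arrays and 1.18 to 1.35 on the R3 arrays for GAPDH, and 1.64 to 1.76 on R7 and 1.66 to 2.29 on R3 for actin. The R7 arrays correlated with each other at 0.989, the R3 arrays among themselves at 0.976 to 0.992, and arrays of different lines at 0.958 to 0.977 (Pearson's r of log2 values across the tested probe sets, which are not independent). The array labelled R3 P8 correlated with R3 P5, P6 and P7 at 0.984, 0.985 and 0.976, where R3 P5 to P7 correlated among themselves at 0.981 to 0.992. It correlated more closely with the late arrays R3 P16 and P17, at 0.994 and 0.990. On the first principal component of the 6 arrays, R3 P8 was at -18.8, beside R3 P5 at -15.4, and R3 P7 was the R3 array nearest to R7, at -6.7. Among the R3 arrays used only for the other stages, the early array labelled P2 replicate 1 correlated with the late array labelled P19 at 0.993 and with its own replicate at 0.954. The array labelled P2 replicate 2 correlated with R3 P5, P6 and P7 at 0.986, 0.987 and 0.981. These R3 P2 and P19 arrays do not enter the comparison at intermediate passages.

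The question at intermediate passages was which genes separated the lines while both were between early culture and established line. With limma and Benjamini-Hochberg adjustment over all 8958 probe sets, 166 probe sets (1.85%) were higher in R7 and 94 (1.05%) were lower at an adjusted p under 0.05. At an unadjusted limma p under 0.05 there were 1494. With 2 arrays against 4, a gene without a call was not shown to be equal in the lines. With 1 probe set per gene, 127 of 7085 genes (1.79%) were higher and 76 (1.07%) were lower. These shares are to be set beside every count of called list members below. All 203 called genes had R7 arrays outside the range of the R3 arrays. Over all tested genes, 15.2% had both R7 arrays above all 4 R3 arrays and 12.5% had both below, whether called or not.

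The higher genes differed by more than the lower ones. Their median difference was 2.83-fold, 44 of the 127 exceeded 4-fold and 24 exceeded 8-fold. The median of the 76 lower genes was 2.01-fold, 9 exceeded 4-fold and the largest was 5.74-fold. In 38 of the higher genes all 4 R3 arrays lay at the floor, and in 5 of the lower genes both R7 arrays did, so that these folds are lower bounds. The median log2 difference over all genes was 0.008. Without R3 P5, P6, P7 or P8 in turn, 102, 80, 182 and 133 higher and 41, 20, 120 and 80 lower probe sets were called. The lower calls thus fell further than the higher ones without R3 P5 or R3 P6. R3 values set to the floor carry no spread, which favours keeping the higher calls in such fits. These counts therefore do not compare how stable the higher and lower genes were. With the spread estimated from all 18 arrays, 171 higher and 26 lower probe sets were called, of which 119 and 18 were among the 166 and 94. The balance of directions also depended on the filter on low values: without the dimmest 30% of probe sets, 52 were higher and 71 lower, and with no filter 46 were higher and 6 lower.

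**Figure D1:**
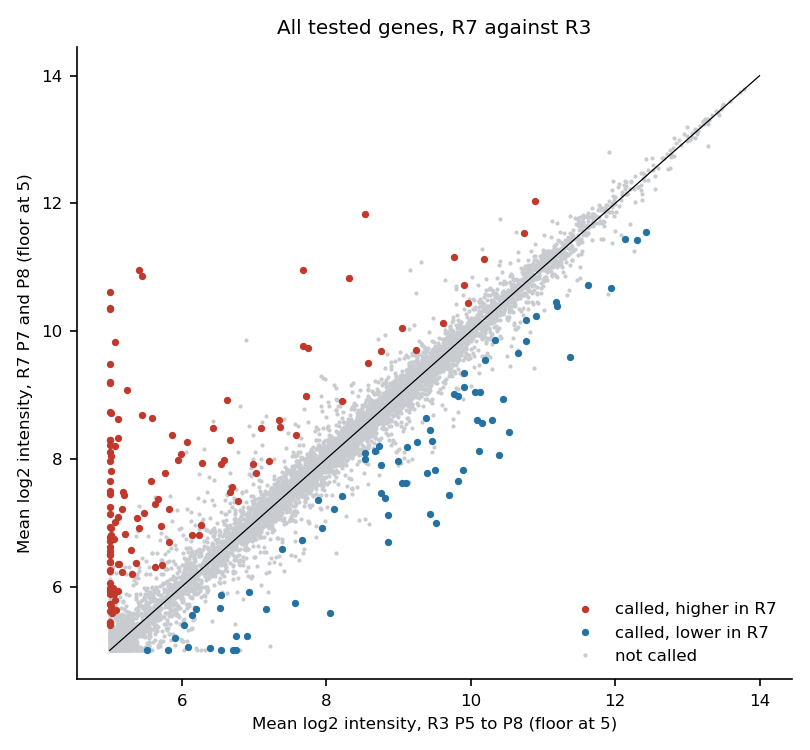
Mean log2 intensity of each tested gene in R7 P7 and P8 (vertical axis) against R3 P5 to P8 (horizontal axis), with values below 32 at the floor of log2 5 and the line of equality drawn. The 127 genes called higher in R7 include a column at the R3 floor, while the 76 genes called lower are spread over a wide range of R3 intensity.

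The 12 genes with the largest differences on the higher side included the transcription factor genes vvl, mid, pdm3 and cas, which are described together here after their values were seen and with no list of such factors tested. The gene vvl (Entrez gene 38752) encodes a POU-domain factor of tracheal and neural development. Its intensity was 1570 and 1060 on R7 P7 and P8, against 3.42, 2.24, 5.9 and 3.65 on R3 P5, P6, P7 and P8. Both R7 arrays were bright and all R3 arrays were below the floor, a difference of log2 5.34 ± 0.15 (SE), or at least 40.4-fold, with a limma adjusted p of 2.0e-05. A second tested probe set of vvl was also called higher. The T-box factor gene mid (Entrez gene 33770), which acts in heart and nervous system development, had 1090 and 764 on R7 P7 and P8, against 30.2, 33.6, 36.9 and 6.81 on R3 P5 to P8. That was at least 27.1-fold (log2 4.76 ± 0.15, limma adjusted p = 2.7e-05), with R3 P8 the lowest of the R3 arrays.

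The other factors were also near or below the floor in R3. The POU-domain gene pdm3, known from olfactory neurons, had 840 and 412 on the R7 arrays, against 4.59 to 7.98 on the R3 arrays, at least 18.4-fold (limma adjusted p = 0.000575), although only 1 of its 2 tested probe sets was called. The gene cas, a zinc finger factor of the neuroblast temporal series, had 536 and 328 on the R7 arrays, against 11.8 to 33.4 on the R3 arrays, at least 13.0-fold (limma adjusted p = 0.000233). The gene grh, a factor of epidermal barrier formation that is also used in neuroblasts, had 369 and 270 on the R7 arrays, against 8.89 to 20.6 on the R3 arrays, at least 9.86-fold (limma adjusted p = 6.7e-05). No R7 array overlapped an R3 array for these 5 factors, and their calls were kept whichever of the 4 R3 arrays was left out. For vvl, pdm3 and grh all 4 R3 arrays were set to the floor, and for cas 3 were. Leaving out an R3 array could therefore hardly end these calls, and their standard errors leave out any R3 spread below the floor. Of the other neuroblast markers, ase, dpn, wor, pros and sna had no R7 or R3 array above the floor. Only grh was called among 6 tested neuroblast genes. The neuroblast gene mira had 89.6 and 107 on the R7 arrays, against 42.1 to 79.7 on the R3 arrays (limma adjusted p = 0.388). In 2 of the 6, grh and mira, both R7 arrays lay above all 4 R3 arrays, and in 1 both lay below. Over all genes these shares were 15.2% and 12.5%. Among 7 tested neuron genes, only nerfin-1, a zinc finger gene of early neurons, was called, at 58.6 and 66.9 on the R7 arrays, against 26.4 to 34.4 on the R3 arrays. The pan-neuronal gene elav had 583 and 610 on the R7 arrays, against 453 to 605 on the R3 arrays (limma adjusted p = 0.655), and 8 further neuron genes on the array did not pass the filter on low values. In 3 of the 7, nerfin-1, fne and Snap25, both R7 arrays lay above all 4 R3 arrays, and in none did both lie below. The genes fne and Snap25 did not pass the test (limma adjusted p = 0.0926 and 0.136).

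Genes of the chitin matrix formed the second group with large differences. Of 13 tested cuticle and chitin genes, 5 were higher in R7 and none lower, beside 1.79% and 1.07% over all genes, and the median of the list was 0.77 on the log2 scale. The list has 23 genes on the array, of which 10 lay at the floor on all 6 arrays and were not tested. Of the called genes, serp, Cda4 and Gasp had all 4 R3 arrays at the floor and passed the filter only through R7. The count and the median are therefore a description. The gene obst-A (Entrez gene 33022), a chitin-binding protein that organises the cuticle, had 2440 and 1430 on R7 P7 and P8, against 18.2, 44, 79.3 and 14.3 on R3 P5, P6, P7 and P8. This was at least 42.9-fold (log2 5.42 ± 0.41, limma adjusted p = 0.00152). The R3 values were uneven, with P6 and P7 above the floor and P5 and P8 below it. The chitin deacetylase gene serp had 865 and 396 on the R7 arrays, against 11.8 to 25.4 on the R3 arrays, at least 18.3-fold (limma adjusted p = 0.000867). The putative chitin deacetylase gene Cda4 had 564 and 318 on the R7 arrays, against 2.22 to 6.94 on the R3 arrays, at least 13.2-fold (limma adjusted p = 0.000376).

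The chitin-binding protein gene Gasp had 271 and 228 on the R7 arrays, against 9.23 to 14.6 on the R3 arrays, at least 7.76-fold (limma adjusted p = 2.6e-05). The gene verm, a tracheal chitin deacetylase like serp, was less far apart, with 107 and 63.3 on the R7 arrays, against 24.3 to 39 on the R3 arrays (at least 2.39-fold, limma adjusted p = 0.0327). Not all matrix genes followed. The chitinase-like growth factor gene Idgf6 had 1200 and 1390 on the R7 arrays, against 1110 to 3200 on the R3 arrays, and Cpr49Ah and obst-E lay between 28.4 and 50.8 on all 6 arrays. Without R7 P7 the adjusted p of obst-A was 0.0586, and that of verm lay between 0.0716 and 0.133 without R7 P7, R3 P5, R3 P6 or R3 P8 in turn.

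The trachea list shares Gasp, serp and verm with the cuticle list. With vvl, 4 of its 7 tested genes were higher in R7 and none lower, beside 1.79% and 1.07% over all genes, and its median was 1.26 on the log2 scale. The list has 12 genes on the array. Of the called genes, vvl, Gasp and serp had all 4 R3 arrays at the floor and passed the filter only through R7, so the count and the median are a description. Its other members did not pass the test: btl, the tracheal FGF receptor gene, had 127 and 296 on the R7 arrays, against 209 to 527 on the R3 arrays, and its ligand gene bnl had 151 and 183, against 71 to 361. The tracheal transcription factor genes kni, knrl and rib were below the floor on all 6 arrays and were not tested. The summed intensity of the trachea list was 8840 and 10100 on the R7 arrays, against 6820 to 7910 on the R3 arrays, most of it from the signalling inhibitor gene sty, which had 6910 and 6550 on R7 and 6270 to 7200 on R3. The part of tracheal or epidermal cells in the R7 differences was not tested.

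Secreted proteins and genes of other roles made up the rest of the leading higher genes. The gene stl (Entrez gene 37619), which encodes a metalloprotease of the ADAMTS family, had the largest difference of all called genes. Its intensity was 2110 and 1170 on R7 P7 and P8, against 24.1, 31.9, 30.3 and 18.2 on R3 P5, P6, P7 and P8. All R3 arrays were at the floor and the R7 mean was at least 49.2-fold higher (log2 5.62 ± 0.21, limma adjusted p = 6.5e-05). Tsf1 (Entrez gene 32821), which encodes the iron-binding haemolymph protein transferrin, had 2500 and 1560 on R7 P7 and P8, against 31, 40.8, 78.9 and 27 on R3 P5 to P8. It was at least 46.4-fold higher (log2 5.53 ± 0.40, limma adjusted p = 0.00122), with both of its tested probe sets called, but its adjusted p was 0.0536 without R7 P7.

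Among genes without a role given here, CG15554 was at least 41.0-fold higher (1510 and 1140 on R7, against 7.96 to 15.4 on R3, limma adjusted p = 1.2e-05) and CG3823 at least 22.3-fold (760 and 671 on R7, against 19.5 to 30.1 on R3, limma adjusted p = 5.8e-06). CG16978 was at least 14.3-fold higher, with 1050 and 278 on the R7 arrays, against 51.8, 39, 20.5 and 2.91 on R3 P5 to P8, and its adjusted p was 0.0692 without R3 P6. Further genes, higher by 8.34 to 11.4-fold, included qua, a villin-like actin-bundling protein gene (581 and 268 on R7, against 8.93 to 43.3 on R3), and EbpIII, known from the male ejaculatory bulb (474 and 206 on R7, against 6.88 to 12 on R3). Ktch had 324 and 270 on R7, against 5.15 to 13.6 on R3, and CG14565 had 469 and 340 on R7, against 34.4 to 73.4 on R3. The noncoding RNA gene lncRNA:alphagamma-element:CR32865 had 2040 and 1930 on R7, against 167 to 238 on R3. Bbd, a secreted factor needed for Toll-induced Bomanin peptides, had 613 and 168 on R7, against 16.2 to 39.1 on R3. These 6 genes lay clear of the R3 range on both R7 arrays. CG14565 was not called without R7 P7 or without R7 P8 (adjusted p = 0.124 and 0.0657), and Bbd was not called without R3 P5 or without R3 P6 (0.0668 and 0.0831). In 91 of the 127 higher genes R7 P7 was above R7 P8, beside 50.2% of all genes.

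**Figure D2:**
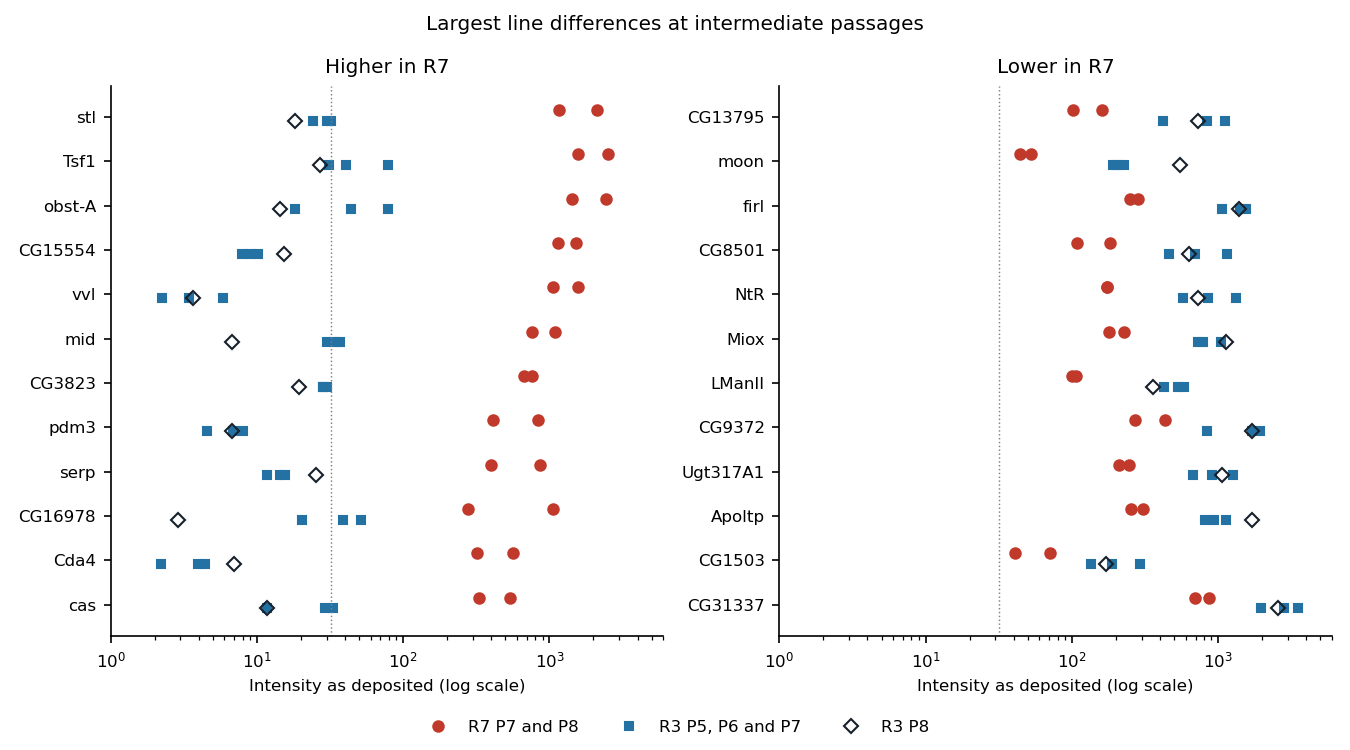
Intensity as deposited (log axis) of the 12 genes with the largest differences in each direction, with R7 P7 and P8 as circles, R3 P5 to P7 as squares, R3 P8 as an open diamond, and the floor of 32 dotted. For the higher genes the R7 arrays lie between 278 and 2500 and most R3 arrays lie below the floor, while for the lower genes all R7 and R3 arrays are above the floor.

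Most of the genes lower in R7 were above the floor in both lines. The largest difference was that of CG13795, with 161 and 101 on R7 P7 and P8, against 1120, 841, 420 and 727 on R3 P5, P6, P7 and P8. It was 5.74-fold lower (log2 -2.52 ± 0.39, limma adjusted p = 0.0266). The gene moon (Entrez gene 32176) encodes Moonshiner, a paralogue of a basal transcription factor subunit used at piRNA clusters of the germ line. It had 44.1 and 52.8 on the R7 arrays, against 191, 204, 228 and 548 on R3 P5, P6, P7 and P8 (5.47-fold lower, limma adjusted p = 0.0391). The R3 P8 value was the highest. Against R3 P5 to P7 alone the gene was 4.29-fold lower (limma adjusted p = 0.00188). The gene firl (Entrez gene 34627) had 283 and 251 on R7, against 1560, 1420, 1060 and 1380 on R3 (5.03-fold lower, log2 -2.33 ± 0.16, limma adjusted p = 0.00104), and its call was kept whichever array was left out.

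Miox, which encodes myo-inositol oxygenase, had 179 and 226 on R7, against 732 to 1130 on R3 (4.52-fold lower, limma adjusted p = 0.00436). The lysosomal mannosidase gene LManII had 100 and 107 on R7, against 356 to 587 on R3 (4.5-fold lower, limma adjusted p = 0.00374), and its relative LManI had 15.6 and 15.5 on R7, against 79 to 125 on R3 (at least 3.25-fold lower, limma adjusted p = 0.00585). Apoltp, the gene of the lipid transfer particle that loads haemolymph lipoproteins, had 255 and 304 on R7, against 816 to 1690 on R3 (3.96-fold lower, limma adjusted p = 0.0211). The UDP-glycosyltransferase gene Ugt317A1 was 4.19-fold lower and LKRSDH, an enzyme of lysine breakdown, 3.10-fold lower.

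The cytochrome P450 gene Cyp9h1 had 18.8 and 15.8 on R7, against 98.4 to 131 on R3, and was at least 3.36-fold lower (limma adjusted p = 0.00152). SerT, the serotonin transporter gene, had 31.7 and 43.9 on R7, against 80.4 to 184 on R3, at the edge of the test (adjusted p = 0.0495). The kinase gene Dyrk2 had 232 and 224 on R7, against 472 to 959 on R3. CG8501, NtR, CG9372, CG1503, CG31337 and CG33465, given no role here, were 3.21 to 4.92-fold lower. Of the 12 genes with the largest decreases, 1 was still called without R7 P7 and 1 without R7 P8, in both cases firl, and the adjusted p of the other 11 lay between 0.108 and 0.395 and between 0.0567 and 0.257. Without R3 P5, R3 P6, R3 P7 or R3 P8 in turn, 7, 5, 11 and 8 of the 12 were called. None of the 12, firl included, was called with the spread estimated from all 18 arrays. In the lysosome and lipid carrier list as a whole, 2 of 14 tested genes were lower and none was higher, beside 1.07% and 1.79% of all genes. The median of that list was 0.00.

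Haemocyte genes were on the lower side. Of 21 tested haemocyte genes, 4 were lower in R7 and none was higher, beside 1.07% and 1.79% of all genes. In 17 of the 21 the difference was negative, and the median of the list was -0.44 on the log2 scale, beside 0.008 over all genes. In 9 of the 21, both R7 arrays lay below all 4 R3 arrays, beside 12.5% over all genes. The GATA factor gene srp (Entrez gene 41944), needed for haemocytes and fat body, had 410 and 345 on R7 P7 and P8, against 1650, 1080, 955 and 989 on R3 P5 to P8. It was 3.03-fold lower (log2 -1.60 ± 0.23, limma adjusted p = 0.0219). Its cofactor gene ush had 335 and 283 on R7, against 499 to 788 on R3 (2.00-fold lower, limma adjusted p = 0.0475). The scavenger receptor gene crq had 613 and 455 on R7, against 962 to 1260 on R3 (2.02-fold lower, limma adjusted p = 0.0299), and the engulfment receptor gene drpr had 1450 and 1360 on R7, against 2070 to 2670 on R3 (1.66-fold lower, limma adjusted p = 0.0319).

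Further haemocyte genes were uneven. Pvr, the receptor needed for haemocyte survival and migration, had 825 and 568 on R7, against 1380 to 2840 on R3, without passing the test (limma adjusted p = 0.0642). The plasmatocyte gene Hml had 93.3 and 127 on R7, against 71.3, 124, 148 and 516 on R3 P5, P6, P7 and P8, and the haemocyte surface gene He had 2340 and 1360 on R7, against 2340, 1570, 918 and 125. Both therefore overlapped between the lines, and R3 P8 was the extreme array for each, in opposite directions. The prophenoloxidase genes of crystal cells, PPO1 and PPO2, had 235 to 416 on R7, against 87.1 to 813 on R3. The lineage factor genes lz, gcm and gcm2 were below the floor on all 6 arrays. The summed intensity of the list was 8860 and 10800 on the R7 arrays, against 12100 to 17600 on the R3 arrays, with 13400 on R3 P8. The part of haemocytes in the other genes lower in R7 was not tested. None of the 4 haemocyte calls was kept without R7 P7, without R7 P8 or without R3 P6, where their adjusted p lay between 0.083 and 0.268, and none was called with the spread estimated from all 18 arrays.

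Of 17 tested basement membrane genes, 2 were lower and none was higher, beside 1.07% and 1.79% of all genes. In 9 of the 17 both R7 arrays lay below all 4 R3 arrays, beside 12.5% of all genes, 15 had a negative difference and the median was -0.40 on the log2 scale. Col4a1 and vkg encode the collagen IV chains. Col4a1 had 2750 and 2830 on R7, against 4470, 4410, 4570 and 4510 on R3 P5 to P8 (1.61-fold lower, log2 -0.68 ± 0.07, limma adjusted p = 0.00537), and this call was kept whichever array was left out. The gene vkg had 2540 and 2990 on R7, against 4860, 5080, 4780 and 5530 on R3 (1.84-fold lower, limma adjusted p = 0.0102), with an adjusted p of 0.106 without R7 P7 and 0.0545 without R3 P6. The perlecan gene trol had 2110 and 2840 on R7, against 3720 to 5890 on R3 (2.00-fold lower, limma adjusted p = 0.0689), and 1 of its other 3 tested probe sets was called lower. The laminin genes LanA, LanB1 and LanB2 lay 1.43 to 1.49-fold lower without passing the test. The summed intensity of the list was 28500 and 32000 on R7, against 40200 to 50000 on R3.

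Genes of mesoderm and muscle went both ways. Twist and Heartless, the muscle precursor markers, were expressed in both lines and lower in R7: twi had 730 and 890 on R7, against 1690, 1760, 1360 and 1650 on R3 P5 to P8 (1.99-fold lower, log2 -0.99 ± 0.14, limma adjusted p = 0.0181). The gene htl had 1520 and 1910 on R7, against 2920, 3380, 2810 and 3640 on R3 (1.86-fold lower, limma adjusted p = 0.0319). These were the only calls among 6 tested adult muscle precursor genes, whose median was -0.51, beside 1.07% of all genes called lower and 1.79% called higher. The gene zfh1, a further factor of muscle precursors, had 1520 and 1690 on R7, against 1690 to 2050 on R3, and vg was below the floor on all 6 arrays. Both calls were lost without R7 P7 (0.203 and 0.283), R7 P8 (0.0812 and 0.112), R3 P5 (0.0629 and 0.0738) or R3 P6 (0.0727 and 0.115), and htl also without R3 P8 (0.0525).

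The muscle actin gene Act79B (Entrez gene 40444) had 4620 and 2930 on R7, against 670, 419, 349 and 193 on R3 P5, P6, P7 and P8. It was 9.92-fold higher in R7 (log2 3.31 ± 0.47, limma adjusted p = 0.0201), and its adjusted p was 0.268 without R7 P7, 0.15 without R7 P8 and 0.0783 without R3 P6. No other of the 8 tested body muscle genes was called, and Mlc1, up, Tm2, Mlp60A and Mlp84B did not exceed the floor on any of the 6 arrays. The cell fusion gene rst had 933 and 727 on R7, against 375 to 500 on R3 (1.90-fold higher, limma adjusted p = 0.0332). It was the only 1 of 12 tested fusion genes called, and its call was lost whichever array was left out, with adjusted p between 0.0571 and 0.293. The GATA factor gene pnr, used in heart precursors, had 434 and 352 on R7, against 877 to 1490 on R3 (2.78-fold lower, limma adjusted p = 0.0245), in the opposite direction to mid. Without R7 P7, R7 P8 or R3 P6, the adjusted p of pnr was 0.207, 0.202 and 0.0989, and pnr was not called when R7 P4 was counted as intermediate.

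**Figure D3:**
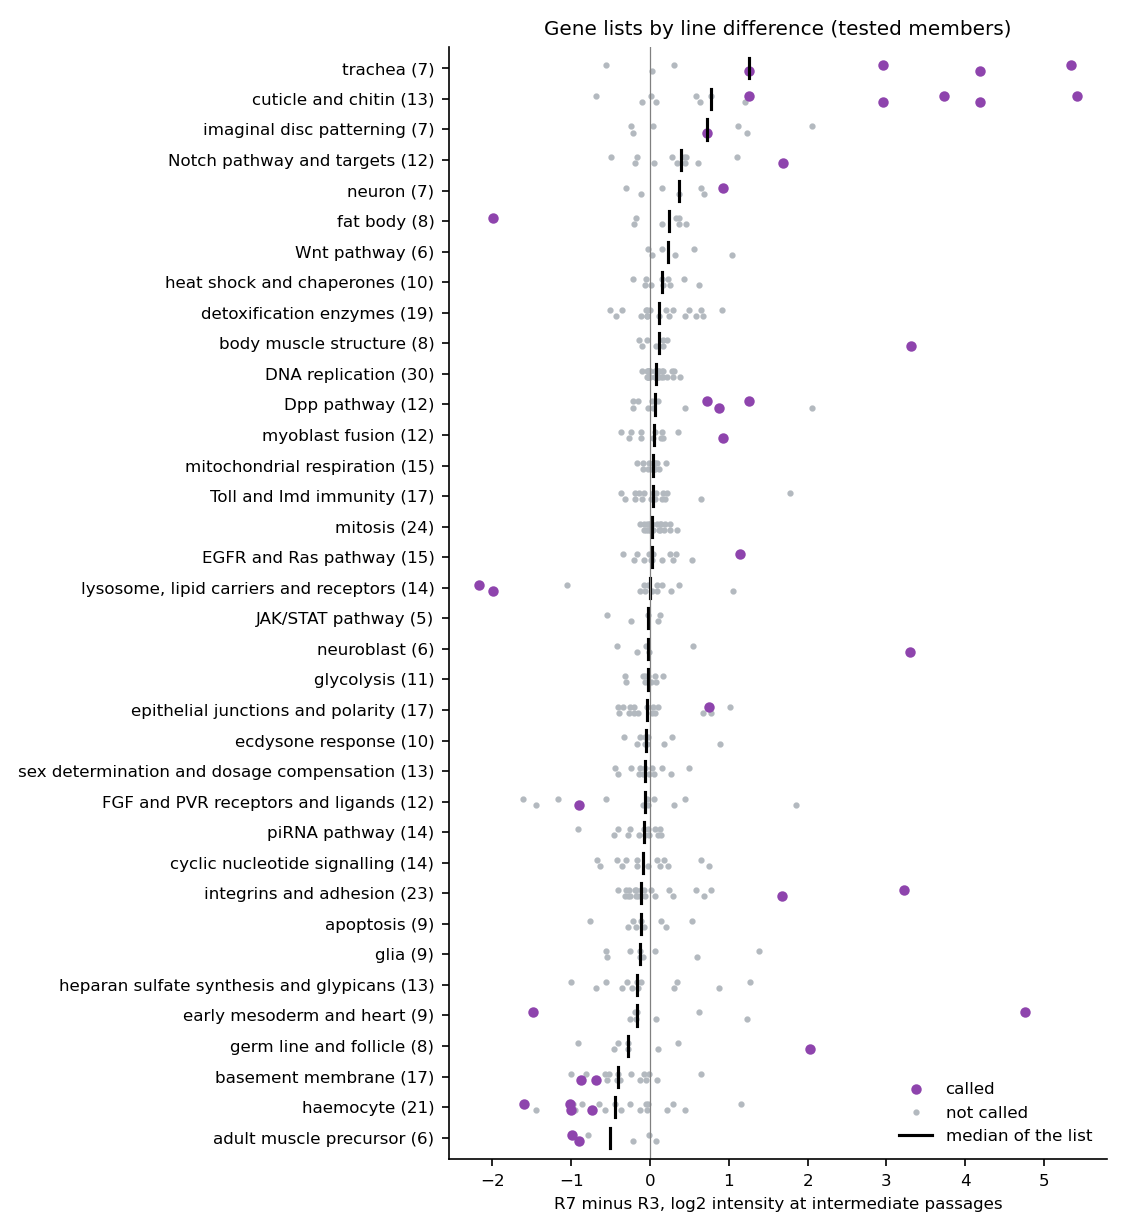
R7 minus R3 difference (log2) of each tested gene in the 36 lists with 5 or more tested genes, with the number tested in parentheses, called genes as large points, others as small points and the median as a bar. Trachea (1.26) and cuticle (0.77) have the highest medians, and adult muscle precursor (-0.51), haemocyte (-0.44) and basement membrane (-0.40) the lowest. The trachea and cuticle medians include genes that passed the filter on low values only through the R7 arrays.

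Signalling genes differed in a few members only. In the Dpp pathway, the BMP pathway of the fly, 3 of 12 tested genes were higher and none was lower, beside 1.79% and 1.07% of all genes, and the median was 0.07. The ligand gene dpp had 51.2 and 54.4 on R7, just above the floor, against 7.73 to 16.6 on R3 (at least 1.65-fold, limma adjusted p = 0.00452). The type II receptor gene wit had 92.2 and 63.6 on R7, against 15 to 25.3 on R3 (at least 2.39-fold, limma adjusted p = 0.00918), and Dad, an inhibitory Smad that the pathway itself induces, had 179 and 200 on R7, against 96.7 to 106 on R3 (1.84-fold, limma adjusted p = 0.00452). All 3 calls were kept whichever of the 4 R3 arrays was left out. For dpp and wit, however, all 4 R3 arrays were at the floor, so that leaving out an R3 array could hardly end the call. These genes passed the filter on low values only through R7. With the spread estimated from all 18 arrays, dpp and Dad were not called (adjusted p = 0.241 and 0.172), and dpp was not called when R7 P4 was counted as intermediate (0.124). The receptors tkv, sax and put and the second ligand gbb did not pass the test.

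In the Notch pathway, 1 of 12 tested genes was higher and none lower, beside 1.79% and 1.07% of all genes. Both R7 arrays lay above all R3 arrays in 7 of the 12 and below them in 2, beside 15.2% and 12.5% of all genes. E(spl)malpha-BFM, a Notch target of the Bearded family, had 184 and 148 on R7, against 42 to 61.4 on R3 (3.24-fold, limma adjusted p = 0.00452), with an adjusted p of 0.106 without R7 P7. The EGF receptor ligand gene Krn had 416 and 317 on R7, against 152 to 173 on R3 (2.21-fold, limma adjusted p = 0.00777), the only call among 15 tested EGFR and Ras genes, and it was kept whichever array was left out. Among FGF and PVR genes, htl was the only call of 12.

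Among adhesion genes, fred had 84.4 and 136 on R7, against 25.8 to 37.9 on R3 (at least 3.21-fold, limma adjusted p = 0.00889), and the leucine-rich repeat gene trn had 649 and 259 on R7, against 31.8 to 56.3 on R3 (at least 9.38-fold, limma adjusted p = 0.0097). These were 2 of 23 tested, with none lower, beside 1.79% and 1.07% of all genes, and trn had an adjusted p of 0.0762 without R7 P7. The polarity gene baz had 246 and 251 on R7, against 136 to 170 on R3 (1.68-fold, limma adjusted p = 0.0213), 1 of 17 tested epithelial genes. Its adjusted p lay between 0.0661 and 0.194 without R7 P7, R7 P8, R3 P5 or R3 P6 in turn. The translational regulator gene orb, known from oogenesis and neurons, had 217 and 295 on R7, against 48.6 to 83.4 on R3 (4.08-fold, limma adjusted p = 0.00856), 1 of 8 tested germ line and follicle genes, with an adjusted p of 0.0982 and 0.119 without R7 P7 and without R7 P8, and no call when R7 P4 was counted as intermediate.

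Genes of growth and housekeeping showed no call by limma. None of 30 tested DNA replication genes, 24 mitosis genes, 11 glycolysis genes, 15 respiration genes and 10 chaperone genes was called, with medians between -0.03 and 0.15. CycB, which drives entry into mitosis, had 1340 and 1210 on R7, against 1150 to 1260 on R3, and the glycolytic gene Gapdh1 had 4860 and 4760, against 4280 to 5480. No listed gene was called either among the Toll and Imd (17 tested), ecdysone (10), JAK/STAT (5), Wnt (6), detoxification (19), apoptosis (9), glia (9), heparan sulfate (13), piRNA (14), cyclic nucleotide (14) and dosage compensation (13) lists. The lists are not complete. Called genes outside them, given above, include moon, Cyp9h1 and Ugt317A1, lower in R7, and Bbd, higher in R7. The antifungal peptide gene Drs had 2290 and 2070 on R7, against 415, 1200, 798 and 410 on R3 P5 to P8, which do not overlap (limma adjusted p = 0.117). The master sex determination gene Sxl had 1080 and 815 on R7, against 670 to 897 on R3 (limma adjusted p = 0.453). In the fat body list, Apoltp was the only call among 8 tested genes.

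R3 P8 was next set apart from R3 P5 to P7. Against R3 P5 to P7 alone, 133 probe sets (1.48%) were higher in R7 and 80 (0.893%) lower, and 171 probe sets were called in both comparisons, 65.8% of the first set and 80.3% of the second, none in opposite directions. The comparisons share the R7 arrays and 3 R3 arrays. Of the 105 genes higher in R7 than in R3 P5 to P7, R3 P8 lay below both R7 arrays in 100, and of the 66 lower genes it lay above both R7 arrays in 61. On most of these called genes R3 P8 stood on the R3 side. The genes were chosen for R7 arrays away from R3 P5 to P7, and no share over all genes was taken. The counts are a description. In 32 genes the call appeared only without R3 P8, among them the lipophorin receptor gene LpR1, which had 235 and 288 on R7, against 960, 968 and 676 on R3 P5 to P7 and 135 on R3 P8. Its difference was 3.29-fold lower against R3 P5 to P7 (limma adjusted p = 0.0149) and 2.07-fold lower against all 4 R3 arrays (adjusted p = 0.592). In 64 genes the call appeared only with R3 P8, among them CG13795, CG8501, CG9372 and CG1503, with adjusted p of 0.0571 to 0.0854 against R3 P5 to P7.

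R3 P8 lay at least 2-fold above the other 3 R3 arrays in 32 genes and at least 2-fold below them in 45. R3 P7 lay so far above the others in 30 and below in 9, and R3 P5 in 8 and 1. The late arrays R3 P16 and P17 both lay on the same side of R3 P5 to P7 as R3 P8 in 31 of the 32 and 41 of the 45 genes, beside 16.6% of all genes with both above and 12.2% with both below. The cuticle protein gene Cpr12A was the farthest above, at 1950 on R3 P8, against 74.4, 60.9 and 56.2 on R3 P5, P6 and P7, and R3 P16 and P17 had 904 and 1400. The R7 arrays had 35.4 and 12.2, below every R3 array, and the difference was called against R3 P5 to P7 (limma adjusted p = 0.0421) but not against all 4 (adjusted p = 0.539). The homeobox gene ap, which acts in wing and muscle patterning, had 377 on R3 P8, against 49 to 57.5 on R3 P5 to P7, and the R7 arrays, at 262 and 159, lay between them. It was 3.8-fold higher in R7 than in R3 P5 to P7 (limma adjusted p = 0.0151), and with all 4 R3 arrays its adjusted p was 0.549.

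The other genes with high R3 P8 were Pgant2, a glycosyltransferase that starts mucin-type glycans, Swim, a secreted Wingless-binding protein, Hml and CG5002, which lay 3.48 to 3.94-fold above the highest of R3 P5 to P7. For these 4 genes R7 and R3 P5 to P7 differed by 1.01 to 1.87-fold and did not pass the test. The genes with low R3 P8 were LpR1, He, the muscle founder factor gene slou, the sugar transporter gene nebu, frm and CG31676. He, at 125 on R3 P8, was 7.36-fold below the lowest of R3 P5 to P7, slou, at 87.2, was 5.28-fold below and nebu, at 218, was 5.05-fold below. For He, slou, nebu, frm and CG31676, R7 and R3 P5 to P7 differed by 1.03 to 1.93-fold without passing the test, and R3 P8 lay below both R7 arrays. These 12 genes were chosen by R3 P8 and their R3 P8 values are a description.

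**Figure D4:**
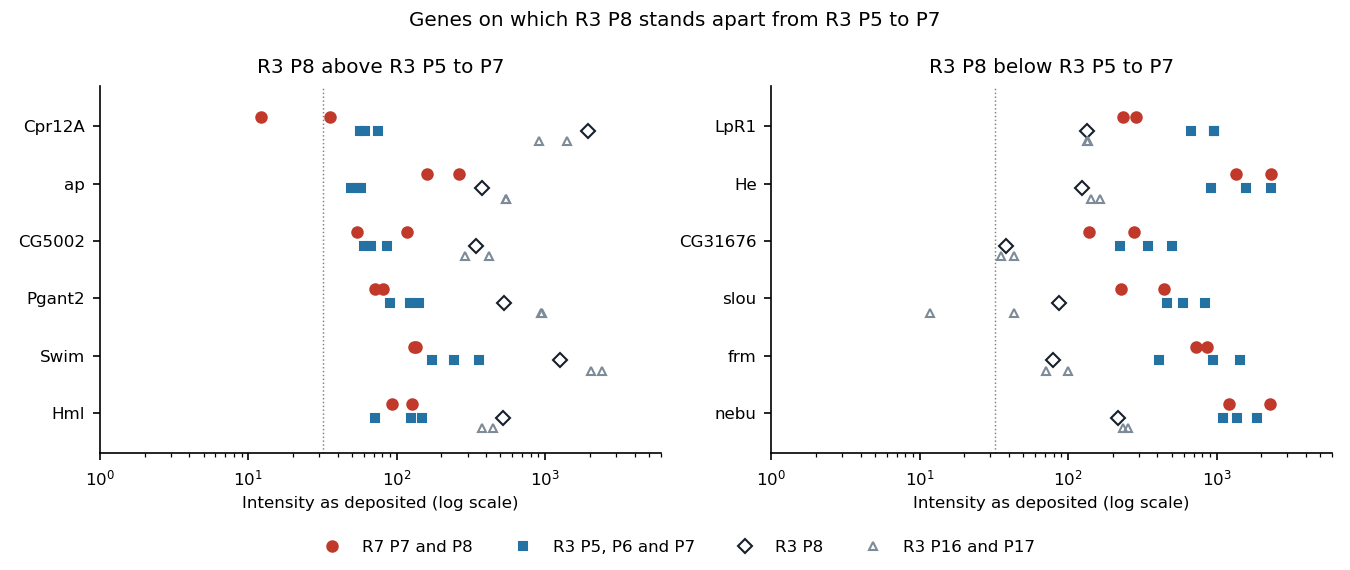
Intensity as deposited (log axis) of the 6 genes in each direction in which R3 P8 lies farthest outside R3 P5 to P7, with R7 P7 and P8 as circles, R3 P5 to P7 as squares, R3 P8 as an open diamond, and R3 P16 and P17 as open triangles. R3 P8 lies near R3 P16 and P17, as for Cpr12A at 1950, against 904 and 1400.

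The R7 array at P4, which is not among the 6 arrays that gave the calls, was read for the same genes. It lay above all 4 R3 arrays in 114 of the 127 genes higher in R7 and below all 4 in 71 of the 76 genes lower, beside 26.2% and 31.2% of all genes, and it shares the R3 arrays with the comparison that chose the genes. On R7 P4, vvl had 1240 and mid had 1030, between R7 P7 and P8. Tsf1 had 2790 and CG15554 had 2190 on R7 P4, above both, while stl had 776 and obst-A had 1210, below both. The genes serp, at 133 on R7 P4, and grh, at 82, were further below R7 P7 and P8. Among the lower genes, firl had 33.6, srp 107, Miox 29.4 and Apoltp 119 on R7 P4, all below R7 P7 and P8. Counted as an intermediate array with R7 P7 and P8, R7 P4 ended the calls of CG1503, CG31337, CG33465, Dyrk2, LKRSDH, dpp, fred, nerfin-1, orb and pnr among the named genes.

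The last comparisons ask whether the line difference at intermediate passages was the same at the other stages, by the interaction of line and stage in a fit of all 18 arrays. Relative to late passages, the line difference was more positive at intermediate passages for 141 probe sets (1.57%) and more negative for 66 (0.737%). Relative to early passages it was more positive for 39 probe sets (0.435%) and more negative for 11 (0.123%). Of the 127 genes higher in R7 at intermediate passages, 64 had a called difference from the late stage in the positive direction, and 31 from the early stage. Of the 76 lower genes, 5 had a called difference from the late stage in the negative direction and none from the early stage. These intermediate arrays also chose the genes, so the counts are a description.

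In 87 of the 127 higher genes, the highest of the 9 R7 arrays was P4, P7 or P8, beside 29% of all genes. The genes were chosen for high R7 P7 and P8, which favours this count, and it is a description only. All 3 late R7 arrays were at the floor in 42 of the 127, and no share over all genes was taken. Every late R7 array lay below both intermediate R7 arrays in 102 of the 127, beside 22.1% of all genes. In 44 of the 76 lower genes every late R7 array lay above both, beside 19.4% of all genes. The choice of genes favours these counts too, and they are a description. The gene stl had 188 and 132 on the R7 P2 arrays, 242 on P3, 776 on P4, 2110 and 1170 on P7 and P8, and 16.8 to 25.6 on the late R7 arrays. On the R3 arrays it was above the floor only on those labelled P2 replicate 1 (314) and P19 (258). The line difference of stl at intermediate minus late passages was 6.62 ± 1.14 on the log2 scale (limma adjusted p = 0.00667), and 5.62 when the R3 arrays labelled P19 and P2 replicate 2 were left out (adjusted p = 2.0e-06). Without R7 P7 its adjusted p was 0.0661.

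The difference of Tsf1 between these stages was 6.03 ± 0.96 (limma adjusted p = 0.00373): it had 492 to 1060 on the early R7 arrays and 35 to 86 on the late ones. That of obst-A was 5.41 ± 0.50 (limma adjusted p = 3.8e-05), with 18.4 to 33.9 on the late R7 arrays and 11 to 32.7 on the late R3 arrays. The gene vvl had 225 to 363 on the early R7 arrays and at most 12.7 on the late ones, an interaction of 5.34 ± 0.22 (limma adjusted p = 6.2e-09). The gene mid did not share this decline. It had 803, 427 and 510 on R7 P16, P17 and P19, against 2.13 to 11.6 on the late R3 arrays, and its difference between stages was 0.63 ± 0.36 (limma adjusted p = 0.539).

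In the opposite direction, Hs3st-A, a heparan sulfate sulfotransferase gene, had 113 and 217 on R7 P7 and P8, against 87.7 to 176 on the intermediate R3 arrays, and differed little between lines at that stage (limma adjusted p = 0.731). At late passages it averaged 2180 ± 185 on R7, against 94.9 ± 74.2 on R3 (SD, n = 3 arrays each), an interaction of -4.40 ± 0.85 (limma adjusted p = 0.0128). The gap gene Kr, a zinc finger factor, had 488 and 857 on R7 P7 and P8, against 548 to 954 on R3, and at late passages 1460 ± 220 on R7, against 179 ± 77.6 on R3 (interaction -3.27 ± 0.73, limma adjusted p = 0.0305). CngA, a cyclic nucleotide-gated channel gene, had 951 and 1720 on R7 P7 and P8, against 938 to 1550 on R3, and at late passages 3410 ± 187 on R7, against 492 ± 259 on R3 (interaction -3.0 ± 0.62, limma adjusted p = 0.02). For these 3 genes the arrays of the lines overlapped at intermediate passages. Without R7 P7 the adjusted p was 0.121 for Hs3st-A, 0.236 for Kr and 0.179 for CngA, and it was 0.0540 for CngA without R7 P19. Kr was called in 3 of 12 fits that left out 1 array.

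Relative to early passages, CG16978 gained most: its line difference was 5.35 ± 0.90 more positive at intermediate passages (limma adjusted p = 0.0115). It had 8.86 to 17.1 on the early R7 arrays, and among the R3 arrays the one labelled P2 replicate 2 stood out at 262. Without that array and R3 P19 the interaction was 3.83 (adjusted p = 0.0163), and without R7 P7 the adjusted p was 0.0782. The interaction with early passages was 3.94 ± 0.53 for obst-A (limma adjusted p = 0.00243) and 3.67 ± 0.28 for CG3823 (limma adjusted p = 2.8e-05). In the opposite direction, Doc1, a T-box gene of the dorsal embryo, had 156 to 421 on the early R7 arrays, 55.1 and 41.7 on R7 P7 and P8, and 47.2 to 59.7 on the intermediate R3 arrays. Its interaction was -2.81 ± 0.50 (limma adjusted p = 0.0196), and it was called in 6 of 11 fits that left out 1 array. The Notch ligand gene Delta had 458 to 793 on the early R7 arrays and 167 and 139 on R7 P7 and P8, against 116 to 150 on the intermediate R3 arrays (interaction -1.91 ± 0.30, limma adjusted p = 0.0067), with an adjusted p of 0.0545 without the array labelled R3 P2 replicate 2. CG32816 had 218 to 552 on the early R7 arrays and 112 and 55.3 on R7 P7 and P8, against 18.5 to 37 on the intermediate R3 arrays. Its interaction was -2.27 ± 0.46 (limma adjusted p = 0.0458), called in 2 of 11 fits that left out 1 array.

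**Figure D5:**
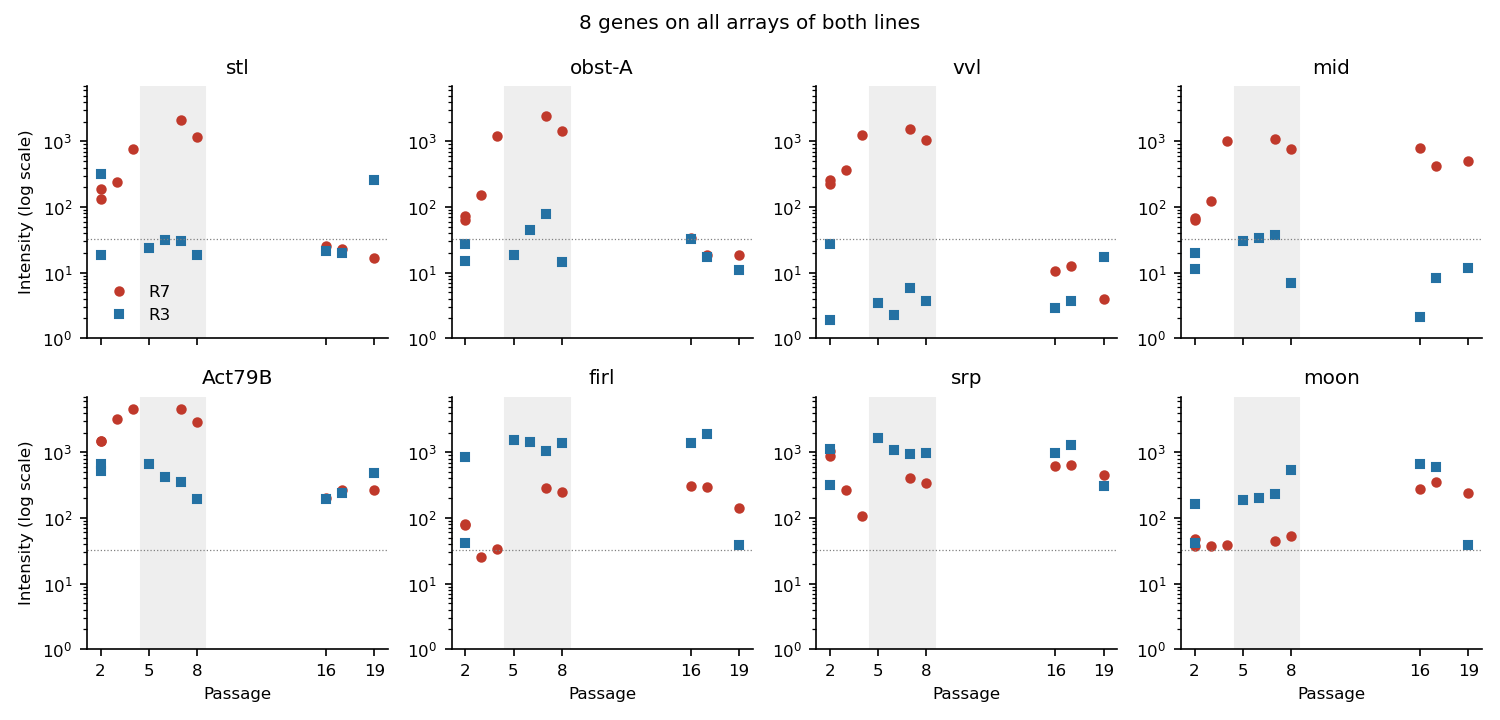
Intensity as deposited (log axis) of 8 genes on all 18 arrays against passage number, R7 as circles and R3 as squares, with the passages of the intermediate arrays shaded and the floor of 32 dotted. In R7 from P16 on, stl and vvl are below 32, obst-A is near or below 32, Act79B is at 201 to 264 and mid stays between 427 and 803. At P7 and P8, firl, srp and moon are lower in R7 than in R3.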

How the data were processed

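RNA from passages of both lines was labelled with biotin and hybridised to Affymetrix 3' arrays, per the labels' protocols. The authors deposited 1 intensity per probe set and array on a linear scale, and how probe sets were summarised and scaled is not given in the sources used here. The deposited intensities were floored at 32 and converted to log2. Non-control probe sets above 32 on at least 2 of the 6 arrays were tested with lmFit and eBayes of limma 3.58.1 in R 4.3.3, with Benjamini-Hochberg adjustment and a threshold of 0.05. Symbols came from the platform annotation: 13647 probe sets had 1 symbol, 402 had several and 4720 had none, and only those with 1 symbol were named. For counts of genes, 1 probe set stood for each gene.

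A second fit set R7 against R3 P5 to P7 with R3 P8 as its own group. Interactions with early and late passages came from a fit of all 18 arrays. The number of arrays limits the precision.

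Members and gene lists were chosen with earlier results of these data known. Genes were named by rule: the 12 largest called, non-overlapping differences in each direction, 8 more per direction against R3 P5 to P7, 6 per direction in which R3 P8 lay farthest outside R3 P5 to P7 (mean intensity over 100), 3 per direction for each interaction, and per list up to 4 called genes, or the 2 brightest where none was called. Other list members are named where a count turns on them and were chosen after their values were seen. The passage numbers P7 and P8 occur in both lines, but the arrays sharing them did not deviate together (correlations of -0.06, -0.21 and 0.10), so they were not treated as pairs. The test was checked on simulated data. Other scalings, floors, filters and left-out arrays were tried as alternatives.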

Additional observations from a re-analysis of the deposited data

Results flagged for a closer look

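Genes named only because R3 P8 lay far outside R3 P5 to P7, such as ap and Cpr12A, were left out of this check. Among the other 86 named genes with unequal R3 values, 8 had 1 of the 4 intermediate R3 arrays far from the other 3. The measure was Dixon's ratio of the gap to the range, where chance gives about 1 in 20 for untied values. The ratio was 1 for cas (R3 P6 highest), qua (R3 P7 highest), CG32816 and fred (R3 P5 highest for both), and in these 4 genes the other 3 R3 arrays lay at the floor, which sets the ratio to 1 however small the gap, as for cas at 33.4 against a floor of 32. It was 0.83 for moon, with R3 P8 highest at 548, and 0.832 for CG9372, with R3 P7 lowest at 844. For Dad it was 0.861, with R3 P5 lowest at 96.7, and for the germ line gene tud it was 0.829, with R3 P7 highest at 1800.

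The line difference at intermediate passages departed from that at late passages in 6 named genes by the interaction in limma. It was more positive by 6.62 on the log2 scale for stl, 6.03 for Tsf1 and 5.41 for obst-A, and differed by -4.40 for Hs3st-A, -3.27 for Kr and -3.0 for CngA. Relative to early passages the interaction was 5.35 for CG16978, 3.94 for obst-A and 3.67 for CG3823, and -2.81 for Doc1, -2.27 for CG32816 and -1.91 for Delta. These 12 values are the 3 largest in each direction of each interaction.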

How the results depend on the processing

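No named gene called between the lines changed direction under any alternative run, while some uncalled ones with small differences changed sign, such as CG31676 (log2 -0.78 to 1.15) and Kr (-1.06 to 0.23). The 260 probe sets called between the lines became 123 (52 higher and 71 lower in R7) without the dimmest 30%, 52 (46 and 6) with no filter on low values and 158 at a minimum of 2-fold. Without probe sets at the floor on every array of 1 line, an alternative chosen after seeing the data, 171 were called. With P7 and P8 of both lines alone 20 were called, all higher in R7, and with passage number as a replicate block limma called 0, with 787 at an unadjusted p under 0.05. Leaving out each array in turn gave 88 to 302. Fewest were called without R7 P7 (88), R3 P6 (100), R7 P8 (136) and R3 P5 (143). The 213 calls against R3 P5 to P7 became 129 without the dimmest 30%, 39 with no filter and 35 to 220 with 1 array left out: 35 without R3 P6, 53 without R7 P7, 92 without R3 P5 and 111 without R7 P8. The 207 interactions with late passages became 87 without the dimmest 30% and 316 when the R3 arrays labelled P19 and P2 replicate 2 were left out, and ranged over 81 to 231 with 1 array left out, lowest without R7 P7. The 50 with early passages became 6, 83 and 35 to 96, highest without R7 P3. With equal array medians the median of all probe sets shifted to -0.123 against late and 0.159 against early passages. Of the values of called named genes under the alternatives, 826 stayed past the threshold and 330 did not. Signal near the floor limits the folds of genes that 1 line lacked.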

Other observations

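Genes of several other lists lay apart between the lines without passing the test, and are given as values. The zinc finger gene salm, a Dpp target, had 415 and 182 on R7 P7 and P8, against 72.4, 88, 93.7 and 32.8 on R3 P5 to P8 (limma adjusted p = 0.105). The glypican gene dlp had 686 and 542 on R7, against 207, 266, 367 and 203 on R3 (limma adjusted p = 0.0637). Both genes had every R7 array above every R3 array. The TNF ligand gene egr had 649 and 656 on R7, against 1280, 1070, 755 and 1440 on R3, with every R7 array below. ImpL2, which encodes an insulin-binding protein, had 7830 and 6550 on R7, against 2750, 4180, 6810 and 2880 on R3, where R3 P7 overlapped the R7 arrays.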
